A study of Rattus norvegicus with 6 samples.

Results

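The enzymes that join glutathione, glucuronic acid or sulfate to foreign and endogenous compounds were compared between kidneys of salt-fed Dahl S and Lewis rats. Members were all probe sets whose single gene symbol in the platform annotation starts with Gsta, Gstk, Gstm, Gsto, Gstp, Gstt, Gstz, Mgst, Ugt1, Ugt2, Ugt3 or Sult. The rule uses names only, and found 48 of the 31099 probe sets on the array, which stand for 45 genes: 23 glutathione transferases, 8 UDP-glucuronosyltransferases and 14 sulfotransferases. RNA came from the kidneys of male rats, 3 of the Dahl salt-sensitive strain (Dahl S) and 3 of the Lewis strain (LEW), with 1 array for each rat. Dahl S is an inbred strain whose blood pressure rises on a high-salt diet, and Lewis is an inbred strain used here for comparison. Both strains ate food with 8% NaCl over 8 weeks, beginning when the rats were 5 weeks old. No group without salt was analysed here, so a difference holds both the inherited difference between the strains and any difference in their response to salt.

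Conjugation makes lipophilic or reactive molecules more soluble in water and easier to export. Glutathione transferases join the tripeptide glutathione to electrophiles, and the product is trimmed and acetylated to a mercapturate, largely in the proximal tubule of the kidney. UDP-glucuronosyltransferases of the endoplasmic reticulum transfer glucuronic acid from UDP-glucuronate to hormones, bilirubin and drugs. Cytosolic sulfotransferases transfer sulfate from the donor PAPS to phenols, steroids and amines.

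Levels are given as normalized signal: all arrays were brought to the same distribution on the scale of log2(signal + 16), and the result was turned back to a linear scale. Differences are on that log2 scale, Dahl S minus Lewis, with the standard error (SE) of the fit, and p-values are adjusted over all 15797 probe sets tested (limma, Benjamini-Hochberg). Fold values come from these differences, so they are ratios of signal + 16 and not of the signals shown. A gene is called higher or lower where its adjusted p lies under 0.05. Where several probe sets of a gene were tested, the one with the highest mean stands for it. Before normalization the 2% trimmed mean of an array was 118.6 to 229.8 in Lewis and 205.5 to 250.5 in Dahl S. The ratio of the 3' to the 5' probe set of beta-actin, a measure of RNA integrity, was 1.99 to 2.51 in Lewis and 2.20 to 2.33 in Dahl S. Pairs of arrays correlated at 0.980 to 0.988 within Lewis, at 0.991 to 0.993 within Dahl S and at 0.958 to 0.970 between strains. Kidney identity was clear from the arrays: all 14 proximal tubule markers and all 10 markers of the distal nephron and collecting duct that the array held passed the filter on low values.

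Conjugation enzymes differed between the strains in both directions. Mu class glutathione transferases (Gstm1, Gstm7 and Gstm5) and 2 sulfotransferases (Sult1c2a and Sult4a1) were higher in Dahl S. Theta class transferases (Gstt1 and Gstt3), alpha class transferases (Gsta4 and Gsta1), the glucuronosyltransferase Ugt2b35 and 3 sulfotransferases (Sult1c3, Sult1a1 and Sult1b1) were lower. Of the 45 member genes 27 passed the filter, and of these 5 were higher, 8 were lower and 14 did not pass the threshold. Over all 9540 genes tested 16.7% were called, 9.04% higher and 7.62% lower. The median difference of the 27 tested members was -0.15, against 0.00 over all genes tested. Strain ranges did not overlap in 15 of the 27, against 35.1% of all genes tested. The 8 lower genes, the median and the 15 include Sult1c3, which passed the filter through Lewis only. In whole kidney, fewer cells that make an enzyme and less of its RNA per cell cannot be told apart.

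**Figure D1:**
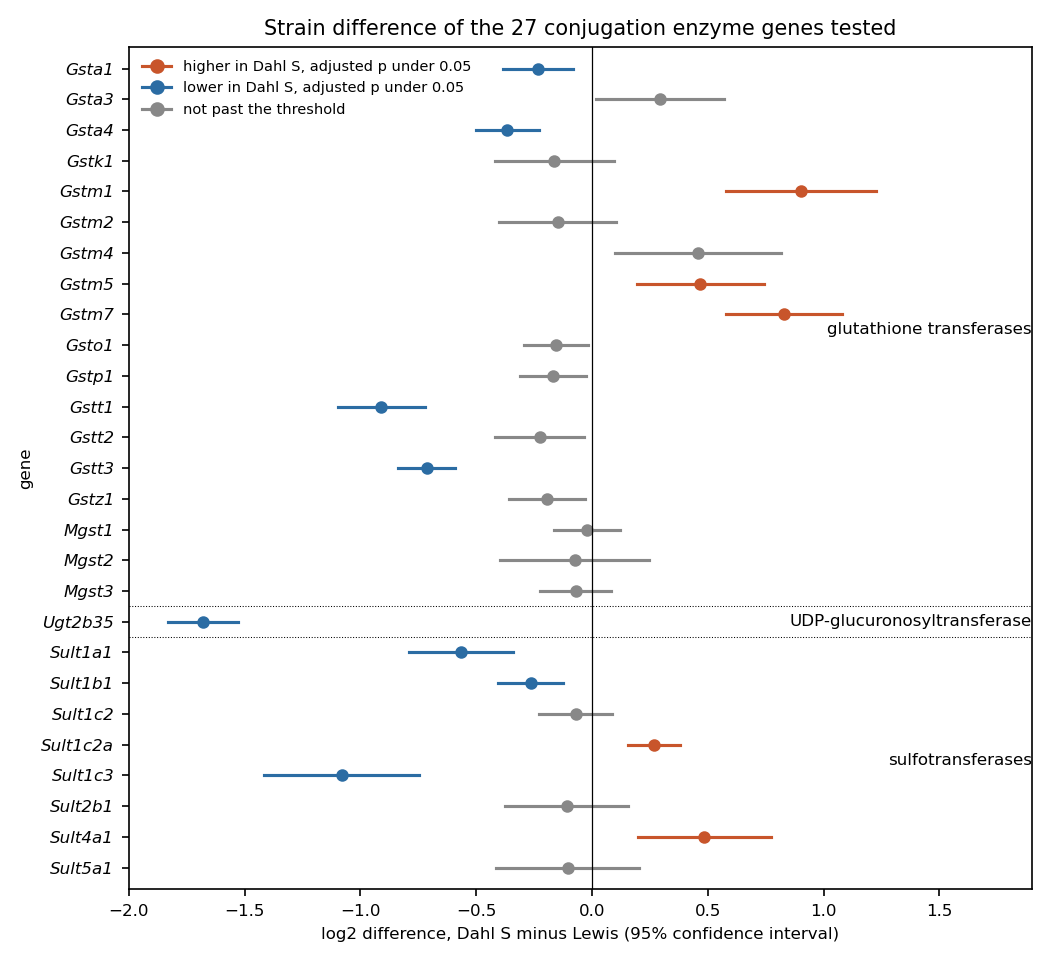
Strain difference of each of the 27 conjugation enzyme genes tested, as the log2 difference of Dahl S minus Lewis (horizontal axis) by gene (vertical axis); points are estimates, bars their 95% confidence intervals without adjustment for the number of genes, and colour the call. Ugt2b35 lies farthest to the left at -1.68, and Gstm1 farthest to the right at 0.90.

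The filter was a normalized signal of 61.6 (the median value of the table), which a tested probe set had to exceed on 3 or more arrays. Of the 13 called genes, 12 exceeded it on all 6 arrays. The exception was Sult1c3, which passed the filter through Lewis only. Without a filter, which adjusts over more probe sets, 3 of the 45 genes were higher (Gstm1, Gstm7 and Sult1c2a) and 7 were lower, where 4.81% of all 14217 genes were called higher and 3.78% lower. Scaling matters for the smaller differences and for some larger ones, such as that of Gstt1 (-0.91). In the deposited intensities without normalization the median probe set was 0.41 higher in Dahl S, and of the members Gstm1 (1.33), Gstm7 (1.23) and Ugt2b35 (-1.34) alone were called. The deposited values also turned the sign of Gsta1 (0.05) and Sult1b1 (0.10), neither of which was called there, and scaling to a common median gave Sult1c2a a difference of -0.01 (adjusted p = 0.97). The changes below are therefore relative to the typical probe set.

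**Figure D2:**
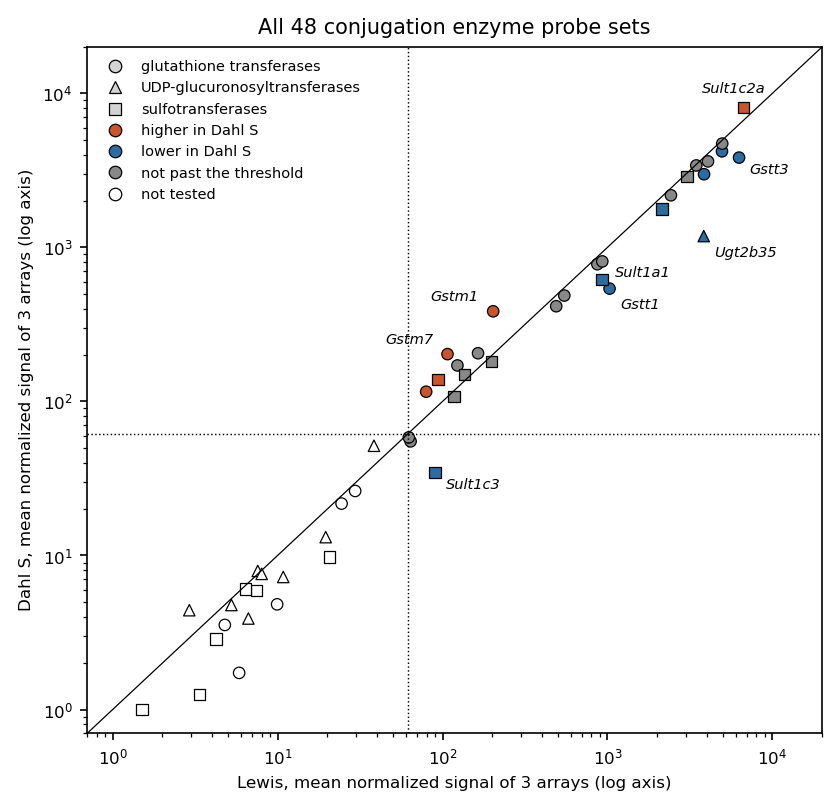
Mean normalized signal of the 48 conjugation enzyme probe sets in Lewis (horizontal, log axis) against Dahl S (vertical, log axis), with 3 arrays in each mean; marker shape gives the enzyme group and colour the call, the diagonal marks equal signal, and dotted lines mark the filter at a signal of 61.6. Of the 9 glucuronosyltransferase probe sets, that of Ugt2b35 alone lies above the filter, and it also lies farthest below the diagonal among the bright probe sets.

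Mu class transferases conjugate epoxides and other electrophiles, and their genes lie in 1 cluster on chromosome 2. Gstm1 had signals of 192.1, 263.1 and 153.4 on Lewis arrays 1, 2 and 3, and of 375.4, 400.4 and 378.4 on Dahl S arrays 1, 2 and 3. Every Dahl S value lay above every Lewis value, and the Lewis arrays were the more scattered. The difference was 0.90 (SE 0.15, adjusted p = 0.0013), a 1.87-fold higher level in Dahl S. Gstm7 gave 97.7, 120.3 and 103.6 in Lewis and 222.4, 202.5 and 183.7 in Dahl S, again without overlap, and was 1.78-fold higher (0.83, SE 0.12, adjusted p = 3.7e-04). Gstm5 was nearer the filter. Its signals were 72.8, 93.3 and 72.7 in Lewis and 113.4, 122.2 and 111.4 in Dahl S, which did not overlap (0.47, SE 0.13, adjusted p = 0.025). The calls of Gstm1 and Gstm7 held with any 1 array left out. That of Gstm5 was lost when Lewis array 3 was left out (0.42, adjusted p = 0.059), and likewise for Dahl S array 1 (0.48, 0.081), Dahl S array 2 (0.43, 0.10) and Dahl S array 3 (0.49, 0.076).

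The other tested mu genes did not pass. Gstm4, which follows Gstm1 in the order of member genes, had 123.2 ± 37.8 in Lewis and 171.3 ± 15.5 in Dahl S (SD, n = 3 each), with overlapping ranges and a difference that did not pass (0.46, SE 0.16, adjusted p = 0.08). Gstm2, which lies between Gstm3 and Gstm1, differed by -0.15 (95% confidence interval -0.40 to 0.11, adjusted p = 0.43). Gstm3 and Gstm6l were below the filter on all 6 arrays. Of 7 mu class genes, then, 5 were tested, 3 were higher, 0 were lower, and the tested genes had a median difference of 0.47. Mu class transcripts are alike in sequence, so a probe set may also bind RNA of a neighbouring gene, and these values are uncertain as measures of single genes.

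The 3 mu class genes that were higher in Dahl S do not follow each other in the order of member genes. Their windows of 250 bases before the start site, picked by the call of the gene, are shown. They are the RefSeq sequences of the GRCr8 assembly, made from another strain (BN), at chr2:198343384-198343633 (minus strand) for Gstm1, chr2:198219519-198219768 (plus strand) for Gstm5 and chr2:198260320-198260569 (minus strand) for Gstm7, written 5′ to 3′ on the gene's strand. Capitals mark the core of the antioxidant response element (TGACNNNGC on either strand), the sequence bound by the stress-responsive factor encoded by Nfe2l2.
Gstm1: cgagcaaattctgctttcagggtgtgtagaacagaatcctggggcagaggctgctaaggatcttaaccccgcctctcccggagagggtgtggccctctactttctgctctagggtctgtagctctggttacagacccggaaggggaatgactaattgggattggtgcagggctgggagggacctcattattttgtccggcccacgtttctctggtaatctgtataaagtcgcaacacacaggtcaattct
Gstm5: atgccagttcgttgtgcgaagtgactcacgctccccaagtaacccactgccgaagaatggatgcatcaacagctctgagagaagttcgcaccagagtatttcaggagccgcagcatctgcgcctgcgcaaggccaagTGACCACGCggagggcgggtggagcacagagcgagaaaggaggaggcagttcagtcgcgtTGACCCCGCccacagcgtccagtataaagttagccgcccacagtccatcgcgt
Gstm7: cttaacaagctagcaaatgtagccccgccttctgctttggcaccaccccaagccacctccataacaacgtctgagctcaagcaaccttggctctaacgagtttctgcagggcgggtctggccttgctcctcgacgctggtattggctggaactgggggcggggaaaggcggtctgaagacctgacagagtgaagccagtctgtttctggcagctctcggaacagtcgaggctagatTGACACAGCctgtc
Gstm5 holds the core at 2 places, 113 and 53 bases before the start site, and Gstm7 at 1 place, 14 bases before it. The window of Gstm1 holds none. The core at 113 bases in Gstm5 overlaps a reverse match to GCGTG, the core of the xenobiotic response element, and a further such match lies 224 bases before the start. Over all 33469 windows of this length 10.1% hold the antioxidant core, and 5 of 42 windows of 39 member genes do, those of Gstm5, Gstm7, Gstp1, Gsta3 and Gstz1, of which the last 3 were not called. GCGTG was found in 25.9% of all windows and in 10 member windows, and GTTAAT, part of the site of the tubular factor HNF1, in 6.45% and in 3. A match describes the letters and shows no binding.

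**Figure D3:**
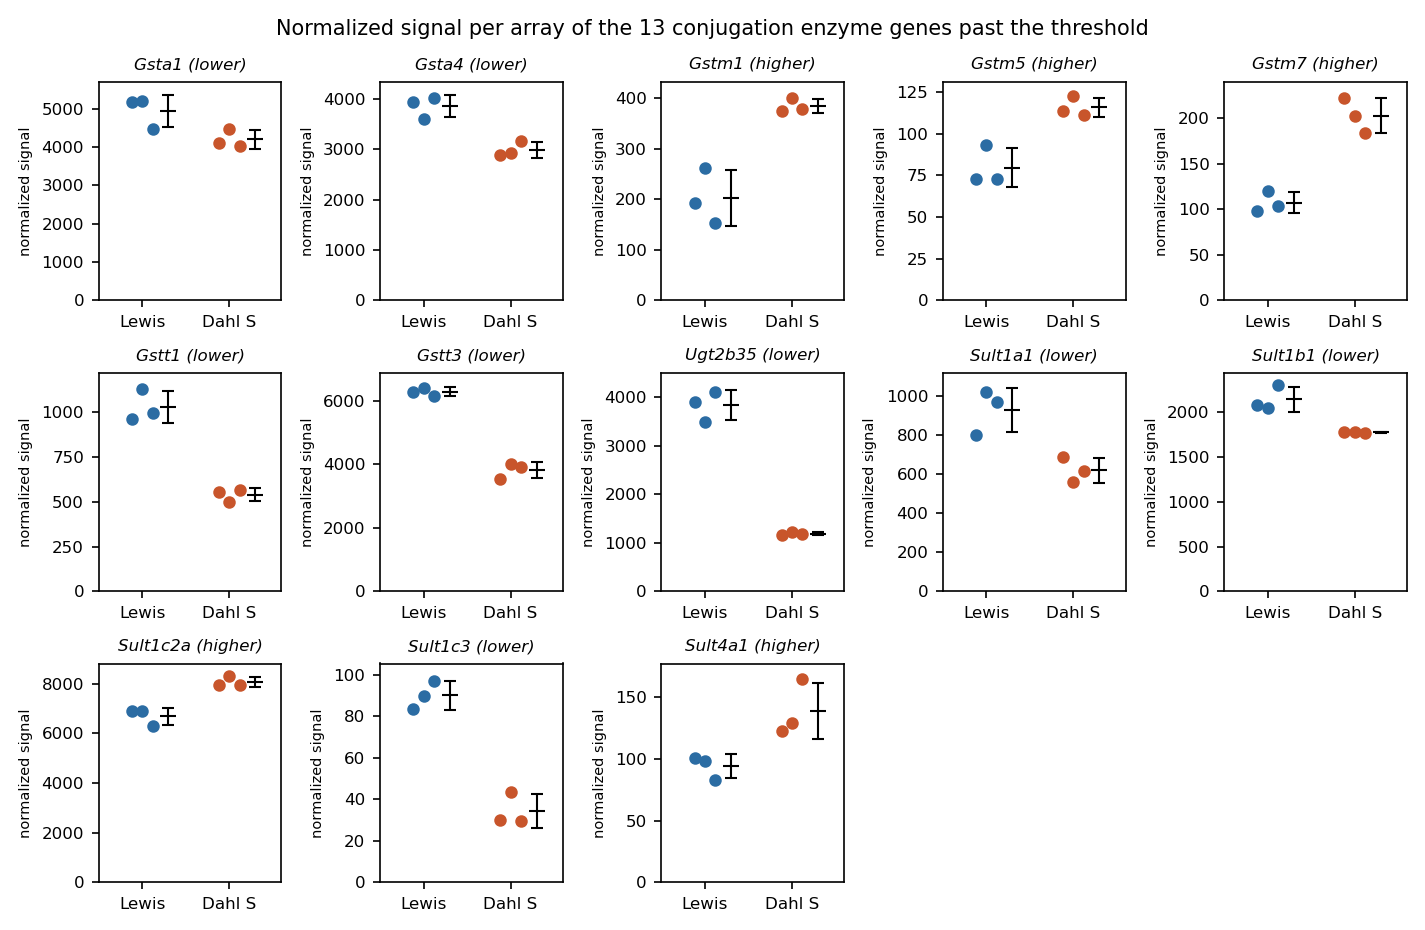
Normalized signal (vertical axis, from 0) of the 13 called conjugation enzyme genes on each array, with Lewis in blue and Dahl S in orange; dots are arrays 1 to 3 from left to right and black bars the mean and SD of 3 arrays. Lewis and Dahl S dots are separate in every panel but that of Gsta1, where Dahl S array 2 at 4482 lies above Lewis array 3 at 4467.

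Theta class transferases handle small halogenated compounds and sulfate esters, and 2 of the 3 tested genes, Gstt1 and Gstt3, were lower in Dahl S. Gstt1 had signals of 962.7, 1132 and 996.2 on Lewis arrays 1, 2 and 3 and of 554.5, 500.1 and 566.2 on Dahl S arrays 1, 2 and 3. All Lewis values exceeded all Dahl S values, and the Dahl S level was 1.88-fold below that of Lewis (-0.91, SE 0.09, adjusted p = 2.0e-05). Gstt3, in the same cluster on chromosome 20, gave 6285, 6420 and 6144 in Lewis and 3555, 4017 and 3914 in Dahl S. Its ranges did not overlap either, with a difference of -0.71 (SE 0.06, adjusted p = 4.9e-06) and a 1.64-fold lower level. Gstt2, also in this cluster, had 489.2 ± 41.7 in Lewis and 415.1 ± 10.9 in Dahl S (SD, n = 3 each) and did not pass (-0.23, SE 0.09, adjusted p = 0.10). Its strain ranges did not overlap, as in 35.1% of all genes tested. Its second probe set, near the filter, differed by -0.17 (SE 0.19, adjusted p = 0.60). The calls of Gstt1 and Gstt3 held with any 1 array left out, and both were lost in the deposited values (-0.48 and -0.47), where the direction was the same.

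The alpha class, which includes the enzymes that clear products of lipid peroxidation, was lower in 2 of its 3 tested genes, in steps smaller than those of the theta class. Gsta4, the transferase with the highest known preference for the lipid aldehyde hydroxynonenal, had signals of 3935, 3602 and 4024 in Lewis and 2884, 2917 and 3157 in Dahl S. Ranges were separate, and the Dahl S level was 1.29-fold below that of Lewis (-0.37, SE 0.06, adjusted p = 0.0018). Gsta1 gave 5168, 5214 and 4467 in Lewis and 4100, 4482 and 4032 in Dahl S, so that 1 Dahl S array exceeded 1 Lewis array. The Gsta1 difference was -0.23 (SE 0.07, adjusted p = 0.038), and its call was lost without Lewis array 1 (-0.19, adjusted p = 0.068), Lewis array 2 (-0.19, 0.12), Dahl S array 1 (-0.22, 0.13) or Dahl S array 3 (-0.20, 0.17). Gsta3 did not pass (0.29, SE 0.13, adjusted p = 0.14), with 164.2 ± 20.3 in Lewis and 205.6 ± 30.9 in Dahl S (SD, n = 3 each). Gsta3l1 was below the filter. A probe set that the annotation assigns jointly to Gsta5 and Gsta2, and which is therefore no member, had signals of 6460, 6756 and 7127 in Lewis and 4448, 4188 and 4337 in Dahl S (-0.65, SE 0.05, adjusted p = 6.5e-06).

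None of the remaining glutathione transferase genes passed the threshold. Gstp1, the pi class enzyme, had 4072 ± 340 in Lewis and 3618 ± 93.2 in Dahl S (SD, n = 3 each), a difference of -0.17 (95% confidence interval -0.31 to -0.02, adjusted p = 0.11), and was called lower when scaled to a common median or without Lewis array 3 (adjusted p = 0.028 and 0.02). Gsto1, the omega class enzyme that also reduces dehydroascorbate, differed by -0.16 (SE 0.06, adjusted p = 0.12). Gstz1, which acts in tyrosine breakdown, differed by -0.19 (SE 0.07, adjusted p = 0.099), and was called without Lewis array 1 (adjusted p = 0.04). Gsto1 and Gstz1 showed separate strain ranges, as did 35.1% of all genes tested. The mitochondrial and peroxisomal enzyme Gstk1 differed by -0.16 (SE 0.12, adjusted p = 0.39). The microsomal transferases are membrane proteins of another fold that reduce lipid peroxides, and none of the 3 passed. Mgst1 differed by -0.02 (95% confidence interval -0.17 to 0.12), Mgst2 by -0.08 (-0.40 to 0.25) and Mgst3 by -0.07 (-0.23 to 0.08). Gsto2 and Gstp3 were below the filter. In all, 18 of the 23 glutathione transferase genes were tested, 3 were higher, 4 were lower and 11 did not pass.

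The glucuronosyltransferases gave the widest strain difference of all members. Ugt2b35, a gene of the Ugt2b cluster on chromosome 14, had signals of 3905, 3498 and 4107 on Lewis arrays 1, 2 and 3 and of 1157, 1219 and 1178 on Dahl S arrays 1, 2 and 3. The lowest Lewis array was well above the highest Dahl S array, and the Dahl S arrays hardly differed from each other. This is a 3.20-fold lower level in Dahl S, at a log2 difference of -1.68 (SE 0.07, adjusted p = 1.4e-08). The call held in all 17 alternatives run, where the difference lay between -1.77 and -1.34. All of these used the same probe set, and some of them could not change its difference. Whether this probe set also binds RNA of other Ugt2b genes was not tested. The other 7 genes of the Ugt2 family on the array (Ugt2a1, Ugt2b, Ugt2b1, Ugt2b7, Ugt2b10, Ugt2b15 and Ugt2b34l1) were below the filter on all 6 arrays. The highest of them, Ugt2b7, which follows Ugt2b35 in the order of member genes, had signals of 27.6, 37.9 and 49.7 in Lewis and 52.6, 42.0 and 60.0 in Dahl S, with overlapping ranges. No probe set carried a single Ugt1 or Ugt3 symbol. The Ugt1a genes share their last exons, and 2 probe sets assigned jointly to 8 Ugt1a symbols, which are not members, were both lower in Dahl S. They had 3426, 3730 and 3737 in Lewis against 2289, 2614 and 2452 in Dahl S (-0.56, SE 0.07, adjusted p = 9.5e-05), and 2222, 2591 and 2063 against 1354, 1238 and 1392 (-0.78, SE 0.09, adjusted p = 6.5e-05).

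The start site window of Ugt2b35 is shown as the largest difference among the members; it lies at chr14:21208191-21208440 (plus strand) in GRCr8 and, with no capitals, holds no match to the antioxidant core.
Ugt2b35: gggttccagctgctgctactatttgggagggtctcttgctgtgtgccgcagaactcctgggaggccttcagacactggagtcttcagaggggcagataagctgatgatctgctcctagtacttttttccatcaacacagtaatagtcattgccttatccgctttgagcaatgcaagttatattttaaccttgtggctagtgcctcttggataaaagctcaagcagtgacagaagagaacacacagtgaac
This window also holds no match to GCGTG or GTTAAT.

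Sulfotransferases were mixed. Of 14 genes 8 were tested, 2 were higher, 3 were lower and 3 did not pass. Sult1c3, of a family that sulfates arylamines, had signals of 83.4, 90.04 and 96.98 in Lewis and 29.9, 43.8 and 29.8 in Dahl S, which did not overlap. It was 2.12-fold lower on the log2(signal + 16) scale (-1.08, SE 0.15, adjusted p = 4.4e-04). No Dahl S array reached the filter, so Sult1c3 entered the test, and the count of lower sulfotransferases, through Lewis alone, and with any 1 Lewis array left out it was not tested. The size depends on the pseudocount: it was -1.41 with none and -0.65 with 64. With no filter on any gene it was called as well (adjusted p = 0.0046). Sult1a1, the main phenol sulfotransferase, gave 799.5, 1017 and 966.4 in Lewis and 686.1, 558.9 and 616.1 in Dahl S. Its ranges were separate, with a difference of -0.57 (SE 0.10, adjusted p = 0.0027), and the call held with any 1 array left out but not in the deposited values (-0.13, adjusted p = 0.76). Sult1b1, which sulfates thyroid hormones and phenols, had 2084, 2041 and 2299 in Lewis and 1780, 1777 and 1771 in Dahl S (-0.27, SE 0.07, adjusted p = 0.015). Its difference stayed between -0.30 and -0.21 with any 1 array left out, but the call ended on leaving out Dahl S array 1 (-0.27, adjusted p = 0.06), Dahl S array 2 (-0.27, 0.062) or Dahl S array 3 (-0.26, 0.079).

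The sulfotransferases that were higher were Sult1c2a and Sult4a1. Sult1c2a had signals of 6906, 6885 and 6304 in Lewis and 7947, 8294 and 7947 in Dahl S, without overlap (0.27, SE 0.05, adjusted p = 0.0035). This call held with any 1 array left out, but scaling to a common median removed the difference, as given above. Sult4a1, known mainly from brain, gave 100.8, 97.8 and 82.9 in Lewis and 122.1, 128.8 and 164.5 in Dahl S (0.49, SE 0.13, adjusted p = 0.026). Its call was lost without Lewis array 2 (0.51, adjusted p = 0.054), Lewis array 3 (0.41, 0.07), Dahl S array 2 (0.52, 0.058) or Dahl S array 3 (0.37, 0.15). Sult1c2 lies in 1 cluster with Sult1c2a and Sult1c3 on chromosome 9 and differed by -0.07 (95% confidence interval -0.23 to 0.09). Another probe set, assigned jointly to Sult1c2 and RGD1562392 and no member, was lower in Dahl S (-0.86, SE 0.07, adjusted p = 4.0e-06). Probe sets of this cluster thus disagreed in direction, and they may share sequence. Sult2b1, the cholesterol sulfotransferase, gave -0.11 (SE 0.12) and, with its other probe set, 0.12 (SE 0.12), neither past the threshold. Sult5a1 differed by -0.10 (SE 0.14, adjusted p = 0.67).

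The 18 member genes that were not tested had 19 probe sets with signals between 0.300 and 60.0 and a median of 5.95. Among them were the hydroxysteroid sulfotransferases Sult2a1, Sult2a2 and Sult2a6, Sult1d1, Sult6b2 and the oestrogen sulfotransferase Sult1e1. Sult1e1 had signals of 26.9, 17.6 and 17.5 in Lewis and 11.03, 7.78 and 10.5 in Dahl S. The ranges of Sult1e1 and of Sult2a6 did not overlap, but all their values lay under the filter. No detection calls were analysed here, so presence or absence of these RNAs cannot be stated.

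Genes of the steps around conjugation were taken from 7 lists. Over these, 80 genes were tested, 3 were higher, 9 were lower and 68 did not pass, beside the 16.7% called over all genes. Of 12 genes of glutathione synthesis and recycling, Ggct, which degrades gamma-glutamyl peptides, was higher (0.34, SE 0.06, adjusted p = 0.0034; 0.23 and not called when scaled to a common median) and 11 did not pass (median 0.00). Of 9 tested genes that act on glutathione conjugates and their products, mercapturates included, 1 was higher and 2 were lower (median -0.10). The aminopeptidase gene Anpep was higher (0.49, SE 0.07, adjusted p = 4.8e-04). Nat8, which encodes the acetyltransferase of the last step, had 2489, 2690 and 2664 in Lewis and 1960, 2087 and 1967 in Dahl S and was lower (-0.38, SE 0.06, adjusted p = 0.0012). Acy3, an aminoacylase gene that acts on mercapturates, was lower too (-0.36, SE 0.05, adjusted p = 6.7e-04).

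Of 13 genes of UDP-glucuronate supply and glucuronide cleavage, 0 were higher and 2 were lower (median -0.10), beside 16.7% called over all genes. The 2 were Dcxr (-0.41, SE 0.07, adjusted p = 0.0023) and Cryl1 (-0.23, SE 0.06, adjusted p = 0.019), both of the glucuronate branch of sugar metabolism. The Cryl1 call ended on leaving out Lewis array 2 or 1 array of Dahl S, whichever it was (-0.25 to -0.21, adjusted p 0.054 to 0.092). Ugdh, which makes UDP-glucuronate, did not pass. Of 13 genes of sulfate supply, Suox, the sulfite oxidase gene, was lower (-0.41, SE 0.09, adjusted p = 0.0063) and 12 did not pass (median -0.03). None of 8 export transporter genes passed in limma (median -0.20), and 1 of them, Abcc1 (-0.32, SE 0.11, adjusted p = 0.067), had an unadjusted p under 0.05.

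Of 15 other conjugating enzymes and partners, 1 was higher and 3 were lower (median 0.01), beside 16.7% called over all genes. Inmt, an N-methyltransferase gene for tryptamine and related amines, had 432.7, 550.5 and 478.9 in Lewis and 1879, 1992 and 1877 in Dahl S. No Dahl S array came near the Lewis range, which made Inmt 3.85-fold higher in Dahl S, with a log2 difference of 1.95 (SE 0.09, adjusted p = 3.0e-08). The microsomal epoxide hydrolase gene Ephx1 (-0.45, SE 0.07, adjusted p = 5.7e-04), the ceramide galactosyltransferase gene Ugt8 (-0.60, SE 0.13, adjusted p = 0.008) and the carboxylesterase gene Ces2c (-0.42, SE 0.11, adjusted p = 0.019) were lower. Of 10 tested receptors and factors that act on conjugation genes, Rxra was lower (-0.45, SE 0.14, adjusted p = 0.047) and 9 did not pass, Nfe2l2, Keap1 and Hnf4a among them. The Rxra call was lost without Lewis array 1 (-0.32, adjusted p = 0.12), Lewis array 3 (-0.49, 0.055) or any 1 Dahl S array (-0.46 to -0.42, 0.10 to 0.16).

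**Figure D4:**
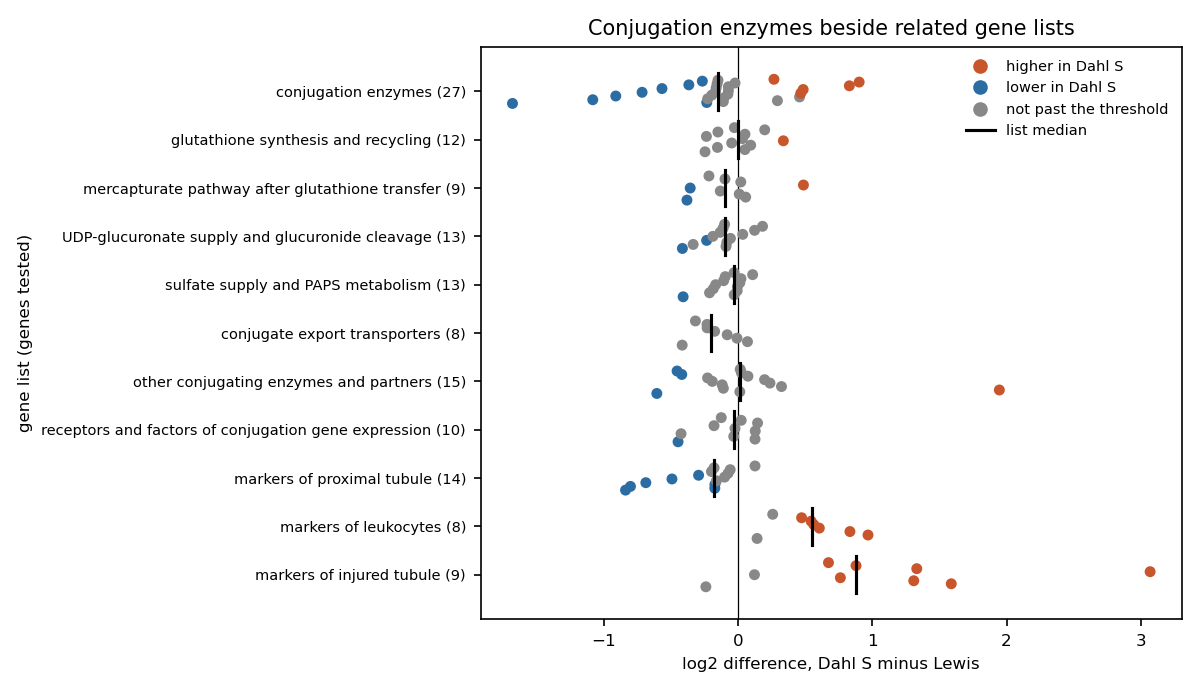
Log2 difference of Dahl S minus Lewis (horizontal axis) for each tested gene of the conjugation enzymes and of 10 other gene lists (vertical axis, number of genes tested in brackets); dots are genes, colour is the call and black bars are list medians. The enzymes spread from -1.68 to 0.90 about a median of -0.15, the lists of supply, export and regulation have medians from -0.20 to 0.01, and the injury markers have a median of 0.88.

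Some markers of cell types differed between the strains and others did not, where 16.7% of all genes tested were called. Of 14 proximal tubule markers 0 were higher, 7 were lower and 7 did not pass (median -0.18), and their summed signal was 60151 to 64218 in Lewis and 52052 to 52692 in Dahl S. Slc5a12, a lactate transporter gene (-0.84, SE 0.08), Slc22a6, the organic anion transporter gene (-0.69, SE 0.09), and Pck1 (-0.49, SE 0.05) were among the 7 lower ones. Lrp2 (-0.07, SE 0.05), Slc34a1 (-0.06, SE 0.06) and Cubn (0.13, SE 0.06) were among the 7 that did not pass. Of 9 injury markers 7 were higher (median 0.88), with sums of 6972 to 7877 in Lewis and 14099 to 14195 in Dahl S; Havcr1 was 8.39-fold higher on the log2(signal + 16) scale (3.07, SE 0.16). Of its Lewis signals, 38.7, 58.1 and 75.6, the highest alone exceeded the filter, and the difference was 3.41 with no pseudocount and 2.43 with 64. Leukocyte markers were higher in 6 of 8 tested (median 0.55), with sums of 5259 to 5935 and 6397 to 7031. Cd74, which did not pass, made up most of each leukocyte sum (3786 to 4496 in Lewis, 4154 to 4791 in Dahl S). Spp1, which was higher, likewise made up most of each injury sum (4092 to 5128 in Lewis, 8358 to 8446 in Dahl S). Of 10 distal nephron and collecting duct markers 0 were higher and 3 were lower (median -0.14; sums of 27264 to 28721 and 25951 to 26717). Adrenal RNA was near the limit: none of 8 markers passed the filter, and their highest signal was 67.3. Of 9 liver markers 7, Alb and Apoa1 included, lay below the filter, with signals up to 55.1. Cyp2e1, which kidney also expresses (-0.72, SE 0.07), and Cps1 passed it. Cps1 did so through Dahl S only, with signals of 65.6, 68.6 and 64.7 there and of 35.1, 40.5 and 27.1 in Lewis, and its difference of 0.72 depends on the pseudocount (0.98 with none and 0.41 with 64). The part of these marker changes in the differences of the conjugation enzymes was not tested.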

How the data were processed

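Kidney RNA of 3 Lewis and 3 Dahl S rats was measured on 1 biotin-label array per rat, and the sample descriptions number a separate rat for each array, so that replicates are animals. The authors computed 1 linear signal intensity for each probe set with GeneChip Operating Software version 1.4, per the labels; the scaling target is not given in the sources used here. Control probe sets (57) were left out, and the deposited intensities were analysed as log2(signal + 16) with quantile normalization, since the trimmed means differed between arrays. The pseudocount is close to the lower quartile of all signals (16.2). Quantile normalization hides any shift shared by most probe sets.

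Probe sets that exceeded the table's median value on 3 or more of the 6 arrays were fitted with limma 3.58.1 in R 4.3.3 (lmFit, eBayes with a variance trend, two-sided, Benjamini-Hochberg adjustment, threshold 0.05) on strain alone. The number of arrays limits the precision, and an exact permutation test of 3 against 3 cannot go below p = 0.1. Summaries used Python 3.11.15 and pandas 2.3.3. Gene symbols came from the platform annotation; 47 of 48 member probe sets matched a gene identifier in the RefSeq table of GRCr8. Probes that differ in sequence between the strains could not be left out. The fit was tested on simulated data.

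The rule for named genes took every called member, the brightest member of each class without one and, for each list, up to 3 called genes, taken by adjusted p. The other members fall outside it. So do the list genes Ces2c, Ugdh, Abcc1, Nfe2l2, Keap1 and Hnf4a, and the markers Lrp2, Slc34a1, Cubn, Cd74, Alb and Apoa1. All of these were named after their values were seen. Members and lists were chosen with earlier results of these data known. Alternatives changed normalization, pseudocount, filter, variance model, the probe set standing for a gene, shared probe sets, membership, a replicate block and each array in turn.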

Additional observations from a re-analysis of the deposited data

How the results depend on the processing

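Ugt2b35 kept its direction and call in all 17 alternatives, as did Gstm1, and Gstm7 in the 16 in which it was tested; for the 13 called genes together, 182 of 213 values kept their direction and call, 28 kept only the direction and 3 turned. Membership by current symbol reuses the main fit, so its values were bound to agree. For these genes, averaging probe sets and leaving out shared ones could not change the difference, only its adjusted p. The deposited intensities left 2 genes higher and 1 lower in place of 5 and 8, with 0 glutathione transferases lower and 0 sulfotransferases in either direction. Higher genes numbered 3 with no filter (1 sulfotransferase) and 2 with the stricter filter (1 glutathione transferase and 1 sulfotransferase). The stricter filter left Gstm7, Gstm5, Sult4a1 and the lower gene Sult1c3 untested. 1 sulfotransferase was higher with scaling to a common median and with limma without the variance trend. Without that trend 4 genes were higher and 6 lower. The limma calls of Sult1c2a (adjusted p = 0.064), Gsta1 (0.15) and Sult1b1 (0.069) were lost there. With 1 array left out, 3 to 5 genes were higher and 6 to 8 lower: 2 to 4 and 3 to 5 glutathione transferases, 1 to 2 and 2 to 2 sulfotransferases, and 0 and 1 glucuronosyltransferases. The labels used here link same-numbered rats by number alone. Correlations of their deviations were -0.05, -0.10 and 0.11, beside -0.07 to 0.13 for pairs of unlike number. A replicate block gave the same 5 higher and 8 lower and ended no member's call. Of the other named genes it ended that of Rxra. Turned signs, all uncalled, were found in the deposited values for Sult1b1 (0.10), Gsta1 (0.051), Gstk1 (0.26), Gsto1 (0.19), Gstp1 (0.11), Gstz1 (0.22), Mgst3 (0.21), Sult2b1 (0.31), Cryl1 (0.12), Suox (0.022), Aqp3 (0.10) and Kcnj1 (0.085), with scaling to a common median for Sult1c2a (-0.0066), without Lewis replicate 2 for Mgst3 (0.0024, the highest of its values with 1 array left out, which began at -0.124) and as the mean of both probe sets for Sult2b1 (0.0056). Averaging probe sets, current symbols, other pseudocounts and leaving out shared probe sets moved none of these counts.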
